A study of Mus musculus with 14 samples.

Results

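Epcam, Fcgr2b, C1qa, Cxcl12, Ccl17 and Mgp, genes expressed by epithelial, myeloid and mesenchymal cells of the thymus, were followed in thymus and brain of mice without miR-34a. They are 6 of the 1380 genes that could be named on the array, and each was represented by 1 of its 20160 probes. The members were chosen by gene symbol with measured values in view: their ratios of mutant over control in thymus, for all 6, and in brain, for C1qa, Cxcl12, Ccl17 and Mgp. These ratios are therefore given as a description with no test. The ratios of Epcam and Fcgr2b in brain, and the levels of all 6 genes in thymus against brain, were tested.

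The animals were male mice on the C57BL/6 genetic background at 17 weeks of age. The genotype of the mutants is given as mir-34a minus, and how the allele was made is not given in the sources used here. Brain RNA came from 3 mutant mice and thymus RNA from 4, of which mice 1 to 3 gave both organs. Each RNA was hybridised on a pair of spotted cDNA arrays with Cy3 and Cy5 exchanged, which gave 6 brain and 8 thymus arrays. The other channel held RNA pooled from control males of the same background and age, with 1 pool per organ. No control mouse was hybridised alone, so the spread among controls is not part of any ratio, and the number of arrays limits the precision of every value. The comparisons address how the loss of miR-34a bears on gene expression in each organ.

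The thymus is built of developing T cells held in a meshwork of epithelial cells, with macrophages, dendritic cells, fibroblasts and vessels between them. Epithelial and mesenchymal cells supply adhesion molecules and chemokines that place the T cells, dendritic cells present antigen to them, and macrophages take up the many that die. The 6 genes are expressed by these supporting cells, although none is restricted to the thymus. In RNA of a whole organ, fewer cells of a type and less RNA per cell cannot be told apart.

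MicroRNAs of the miR-34 family are transcribed under p53 and act on mRNAs through their seed, the stretch of bases 2 to 8. The mature sequences are shown because the mutants lack the first of them, while the others carry the same seed and come from other loci. The RefSeq table used here (GRCm38.p6) is not a full list of mouse miRNAs and may lack members of the family. Its 1738 mature sequences were searched with hits on a chromosome left out, so the count may miss others. The search gave 4 that hold this seed, which stands in capitals below, and miR-34a-5p itself lies at chr4:150068473-150068494 on the plus strand.
mmu-miR-34a-5p: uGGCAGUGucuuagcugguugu
mmu-miR-34b-5p: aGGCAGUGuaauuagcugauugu
mmu-miR-449a-5p: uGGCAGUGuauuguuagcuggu
mmu-miR-449c-5p: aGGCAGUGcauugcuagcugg
The miRNAs themselves were not measured on these arrays, so the loss of miR-34a was not checked here.

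Many spots were dim, and the arrays differed widely. Detection of a probe on an array required a signal of 2 or more SDs of the local background in 1 of its channels, which held for 56.3% to 94.4% of probes on the brain arrays and 7.96% to 85.4% on the thymus arrays. Spots flagged by the scanner software made up 0.812% to 10.7% in brain and 9.32% to 72.4% in thymus. The labelled organs were checked against 4 thymocyte and 7 neuronal genes named on the array. Satb1, a chromatin organiser of thymocytes, was higher in thymus than in brain by 1.65 on the log2 scale (adjusted p = 0.0157, limma), and the neuronal genes Stmn2 and Syp were lower by a log2 difference of -1.63 and -1.26 (adjusted p = 0.00469 and 0.0442). These were the only genes of both lists to pass. Not all neuronal genes went with the labels, as Syn1 and Slc17a7 had log2 differences of 0.75 and 0.24 toward thymus (adjusted p = 0.102 and 0.555). The 3 glial genes named on the array did not separate the organs. Ntsr2, Olig1 and Olig2 had log2 differences, thymus minus brain, of -0.09, 0.03 and -0.03, and none passed. Without thymus replicate 6, 2 of 4 thymocyte genes (Satb1 and Cd8a) were higher, 3 of 7 neuronal genes (Stmn2, Syt1 and Camk2b) were lower, and Syn1 was higher in thymus by 0.97 (adjusted p = 0.0458, limma).

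The 6 probes were detected to different extents. Mgp and Fcgr2b were detected on every array, 6 of 6 in brain and 8 of 8 in thymus. Epcam was detected on 5 of 6 and 5 of 8 arrays, and C1qa on 4 of 6 and 5 of 8. The chemokines were detected more often in brain, Cxcl12 on 5 of 6 brain but 2 of 8 thymus arrays, and Ccl17 on 4 of 6 brain but 3 of 8 thymus arrays. These counts accept a signal in either channel. In the mutant channel alone, Epcam was detected on 4 of 6 brain and 3 of 8 thymus arrays and C1qa on 2 of 6 and 3 of 8. Cxcl12 was detected there on 4 of 6 and 1 of 8, and Ccl17 on 3 of 6 and 2 of 8. The ratio test of an organ took probes detected on a share of 0.5 or more of its arrays with values from both arrays in 2 or more mice. All 6 members passed this filter in brain, as did 17591 of all 20160 probes, and 4 of 6 passed in thymus, where 5422 of 20160 probes passed and Cxcl12 and Ccl17 did not.

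**Figure D1:**
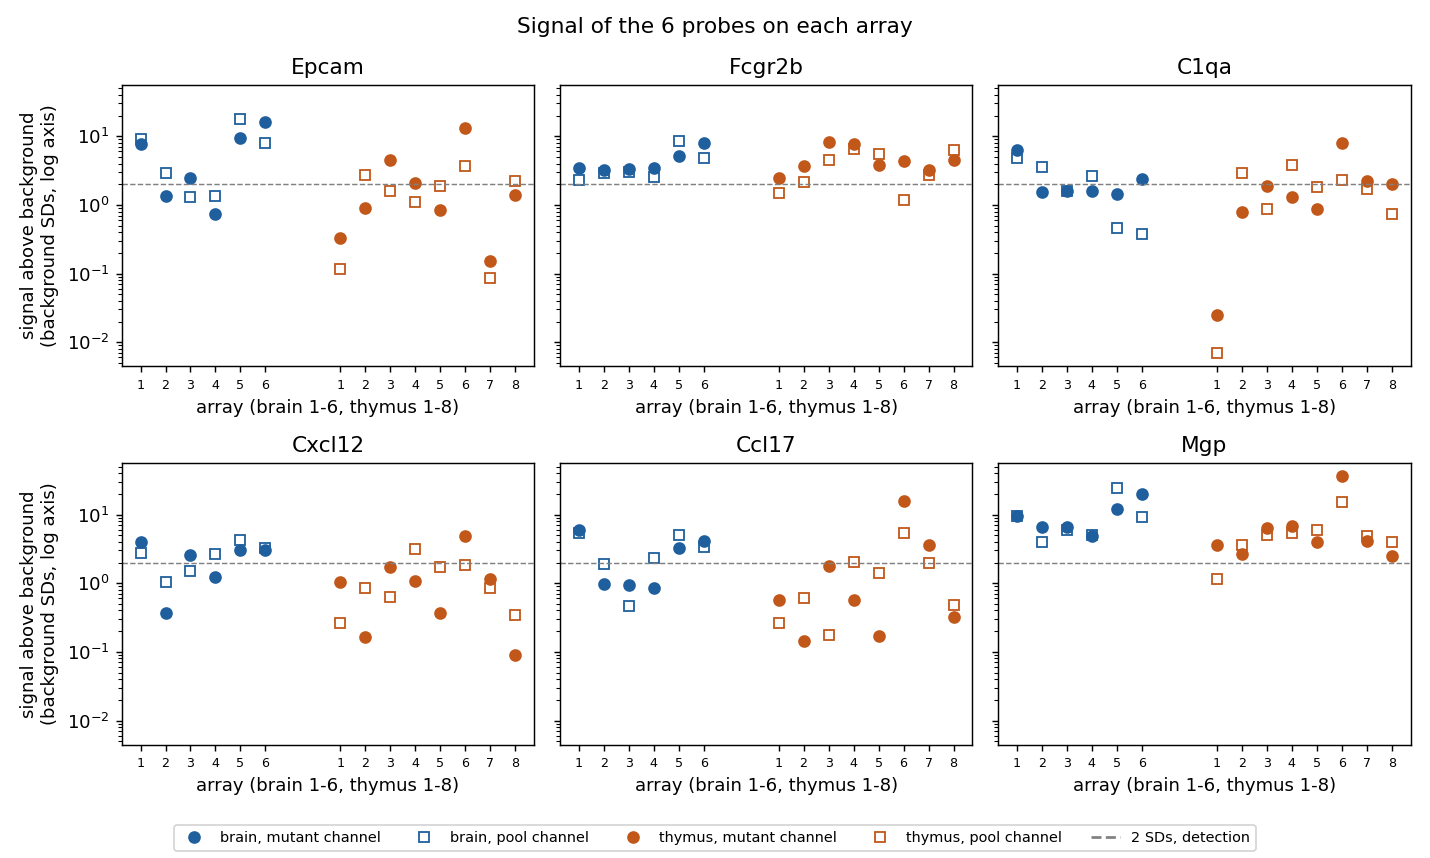
Signal above background of each probe on the 6 brain and 8 thymus arrays, in SDs of the local background on a log axis, with filled circles for the mutant channel and open squares for the control pool, and a dashed line at the 2 SDs used for detection. The Mgp and Fcgr2b spots lie above the line on every array in at least 1 channel, and the Cxcl12 and Ccl17 spots lie below it in both channels on most thymus arrays.

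Across all probes, no ratio of mutant over pool passed an adjusted p of 0.05 in limma, with 0% called of 17591 probes tested in brain and of 5422 in thymus. The smallest adjusted p was 0.845 in brain and 0.850 in thymus. At an unadjusted p of 0.05, 783 probes (4.45%) passed in brain and 273 (5.04%) in thymus. The members are described against that background.

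Epcam encodes an adhesion molecule of epithelial cells and is a standard surface marker of thymic epithelium. In thymus its log2 ratio of mutant over pool was 0.37 in mouse 2 and 0.37 in mouse 3, the only mice in which both arrays gave a value. On single arrays these mice had 0.24 and 0.50, and 0.18 and 0.56. The mean of each mouse lay above the pool, as did both means for 22.8% of thymus probes with a value in just 2 mice, and so did each of the 4 arrays. Mice 1 and 4 had an unflagged spot on 1 array each, with ratios of 0.04 and -0.15, so the 4 mice did not share 1 direction. With flagged spots kept, the mean over 4 mice was 0.18 ± 0.23 (SD), against 0.37 over the 2 mice. In the authors' value table, centred on each array's median, it was 0.62. The mutant signal of Epcam on the thymus arrays ran from 0.152 background SDs (mouse 4, replicate 7) to 13.2 (mouse 3, replicate 6). In mouse 2 the pool signal was 1.59 and 1.10 SDs on replicates 3 and 4, below the 2 SDs used for detection. On replicate 5 of mouse 3 the mutant and pool signals were both below it, at 0.85 and 1.90 SDs. The ratios of 0.37 thus rest largely on dim spots.

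In brain, where Epcam was not chosen for its ratio, the log2 ratio was 0.07 in mouse 1 and -0.06 in mouse 3. Mouse 2 was left out of this fit because 1 of its spots was flagged. The mice lay on both sides of the pool, and the fitted log2 ratio of 0.0017 ± 0.092 (SD, n = 2) had a 95% interval from -0.19 to 0.20 (adjusted p = 0.996, limma).

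Fcgr2b encodes the inhibitory Fc receptor for IgG, carried by B cells, macrophages and dendritic cells. Its log2 ratio in thymus was 0.17 in mouse 1, 0.18 in mouse 2, 0.10 in mouse 3 and 0.16 in mouse 4, a mean of 0.16 ± 0.04 (SD, n = 4). All 4 mice lay above the pool, which 8.77% of the 1813 thymus probes with a value in every mouse did. The ratio was above 0 on all 8 arrays, from 0.02 to 0.10 with the mutant in Cy3 and from 0.16 to 0.30 with it in Cy5. Among the same probes 0.993% were above 0 on every array. In place of loess over the whole array, the mean was 0.09 with loess by print-tip and 0.46 with median centring, and it was 0.59 in the authors' value table.

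Fcgr2b was above the pool in every brain mouse as well. The log2 ratio was 0.28 in mouse 1, 0.20 in mouse 2 and 0.25 in mouse 3, and 14.8% of the 15608 brain probes with a value in every mouse lay above 0 in all 3. The mean was 0.24 ± 0.04 (SD, n = 3) with a 95% interval from 0.11 to 0.38, and it missed the threshold over all brain probes (unadjusted p = 0.00389, adjusted p = 0.845, limma). The dye orientations did not agree: the mean was 0.57 with the mutant in Cy5 (0.34 to 0.79 over 3 arrays) and -0.08 with the mutant in Cy3 (-0.38 to 0.16). With loess by print-tip the mean over both was 0.11 ± 0.11 (SD, n = 3). The gap of 0.65 between orientations was larger than that of 93.3% of the brain probes tested.

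C1qa encodes a chain of C1q, the recognition unit of the classical complement pathway, made mainly by macrophages and in brain by microglia. Its log2 ratio in thymus was -0.03 in mouse 2, 0.12 in mouse 3 and 0.13 in mouse 4, while mouse 1 gave no value because of a flagged spot. In brain it was -0.11 in mouse 1, 0.09 in mouse 2 and 0.29 in mouse 3. In both organs the mice lay on both sides of the pool, with means of 0.07 ± 0.09 (SD, n = 3) in thymus and 0.09 ± 0.20 (SD, n = 3) in brain. The thymus mean was 0.53 ± 0.52 (SD, n = 4) in the authors' value table and 0.13 without mouse 2. The brain mean ran from -0.01 without mouse 3 to 0.19 without mouse 1.

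Cxcl12 and Ccl17 are chemokines. Cxcl12 is made by stromal cells and draws cells that carry Cxcr4, among them early thymocytes, and Ccl17, made by dendritic cells, is a ligand of Ccr4. For Cxcl12 only mouse 2 gave a thymus value, a log2 ratio of -0.14, from arrays at -0.28 and -0.01. For Ccl17 no mouse had an unflagged spot on both thymus arrays, and the 4 single spots ran from -0.36 to 0.37. With flagged spots left out and both arrays of a mouse required, neither chemokine thus had a replicated ratio in thymus. With flagged spots kept, the Cxcl12 mean was -0.08 ± 0.06 (SD, n = 4). In the authors' value table it was -0.43 ± 0.27 (SD, n = 4).

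In brain the log2 ratio of Cxcl12 was 0.05 in mouse 1, -0.24 in mouse 2 and -0.11 in mouse 3, a mean of -0.10 ± 0.15 (SD, n = 3) with mice on both sides of the pool. That of Ccl17 was -0.07 in mouse 1, -0.13 in mouse 2 and -0.12 in mouse 3, a mean of -0.10 ± 0.03 (SD, n = 3). Ccl17 lay below the pool in all 3 brain mice, as did 13.1% of the brain probes with a value in every mouse. By dye its mean was -0.20 with the mutant in Cy5 and -0.01 with the mutant in Cy3. It was -0.04 with loess by print-tip, -0.18 with background subtracted and -0.21 in the authors' value table.

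Mgp encodes matrix Gla protein, a secreted inhibitor of calcification made by fibroblasts, vascular smooth muscle and endothelium. Its thymus log2 ratio was 0.11 in mouse 1, 0.12 in mouse 2, -0.04 in mouse 3 and 0.35 in mouse 4, a mean of 0.14 ± 0.16 (SD, n = 4). Mouse 3 lay below the pool and the others above it. The value of mouse 4 averaged 0.73 on replicate 7, its Cy3 array, and -0.02 on replicate 8. Without mouse 4 the mean was 0.06. With the mutant in Cy5 alone it was -0.01, and with the mutant in Cy3 alone 0.29. It was 0.30 with median centring and 0.43 in the authors' value table. In brain the Mgp log2 ratio was 0.07, -0.02 and -0.08 in mice 1 to 3, on both sides of the pool, with a mean of -0.01 ± 0.07 (SD, n = 3) that turned to 0.05 with median centring and 0.13 in the authors' value table.

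**Figure D2:**
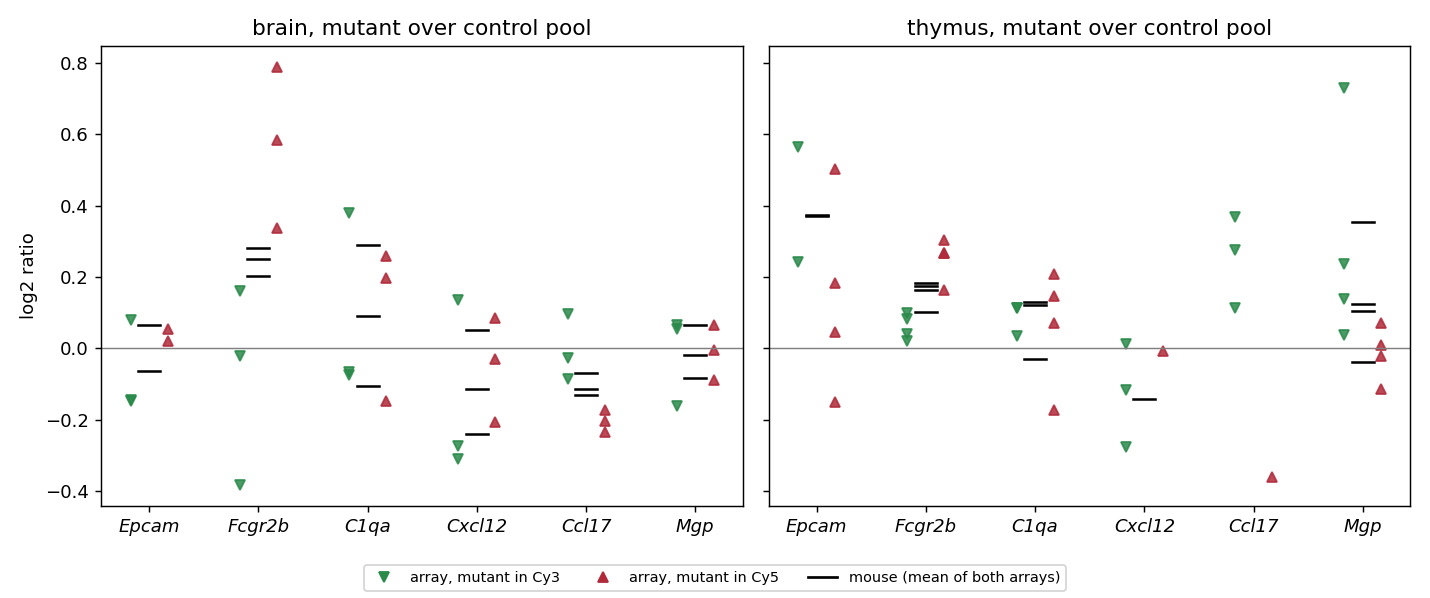
Log2 ratio of mutant over control pool in brain (left) and thymus (right) for the 6 genes, with green triangles for arrays with the mutant in Cy3, red triangles for arrays with it in Cy5, and a bar for each mouse with a value on both arrays. Fcgr2b lies above 0 in all 3 brain and all 4 thymus mice with the dye orientations far apart in brain, Epcam has bars for 2 thymus mice at 0.37, and Ccl17 has none in thymus.

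The level of each gene was next compared between the organs. The level is the log2 intensity of the mutant channel after normalisation across the 14 arrays, averaged over both arrays of a mouse. The mutant channel is also part of the ratios that chose the members, so this comparison is not free of that choice. Before normalisation a spot with no signal lies at about 5.64, the log2 of the offset added in background correction. After it, undetected spots could lie well above that value. C1qa, undetected on thymus replicates 1 and 5, had levels of 6.33 and 6.97 there. The levels of C1qa, Cxcl12 and Ccl17 are therefore close to those of undetected spots. Epcam shares this limit in part: undetected on thymus replicates 1, 5 and 7, it had levels of 5.86, 6.99 and 5.91 there. Of all 20160 probes, 64 (0.317%) were higher and 200 (0.992%) lower in thymus than in brain at an adjusted p of 0.05, and 0 of the 6 members passed in either direction. Every thymus mouse lay above every brain mouse for 8.86% of all probes and below for 7.74%, and for 0 of the 6 members. With the mouse as a block, which rests on mice 1 to 3 as thymus mouse 4 gave no brain, 0 probes were higher and 5 lower.

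Fcgr2b showed the largest difference of the 6. Its level was 6.82, 7.28 and 7.35 in brain mice 1 to 3 and 8.17, 8.45, 7.28 and 7.53 in thymus mice 1 to 4. Mice 1 and 2 were highest in thymus, mouse 4 lay just above the brain mice, and mouse 3 lay among them, so the groups overlapped. The thymus mean exceeded the brain mean by 0.71 (95% interval 0.08 to 1.35), which missed the threshold (unadjusted p = 0.0321, adjusted p = 0.260, limma), and 7.49% of all probes were higher in thymus at an unadjusted p of 0.05.

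The overlap depended on which arrays were kept. The arrays of thymus mouse 3 gave Fcgr2b at 8.40 on replicate 5 and 6.16 on replicate 6, and those of mouse 4 gave 6.76 on replicate 7 and 8.31 on replicate 8. The 6 thymus arrays other than replicates 6 and 7 lay between 8.02 and 8.55, above the highest brain array at 7.46. Replicate 6 also had the largest share of detected probes among the thymus arrays, 85.4%, and replicate 7 the next largest, 47.0%. Without replicate 6, an alternative chosen after seeing the data, mouse 3 stood at 8.40 and every thymus mouse lay above every brain mouse, as for 8.67% of all probes. The difference was then 0.99 (95% interval 0.45 to 1.54), still short of the threshold (adjusted p = 0.0854, limma). In that fit 0.635% of all probes were higher and 1.02% lower in thymus, and again 0 of the 6 members. In the pool channel Fcgr2b had a median of 8.05 over the thymus arrays (6.12 to 8.29) and 6.89 over the brain arrays (6.35 to 7.48).

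Mgp stood at 7.68, 7.85 and 8.16 in brain mice 1 to 3 and at 7.88, 8.49, 9.06 and 7.93 in thymus mice 1 to 4. Thymus mice 2 and 3 were above every brain mouse, and mice 1 and 4 lay within the brain range. The difference of 0.44 (95% interval -0.20 to 1.08) did not pass (adjusted p = 0.478, limma). Thymus replicate 6 gave Mgp at 9.98 and replicate 5, the same RNA, at 8.15. Without replicate 6 the difference was 0.21 (adjusted p = 0.638, limma), with flagged spots left out 0.11 and with median scaling between arrays 0.02.

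Epcam varied more among mice than between organs. It stood at 7.08, 6.33 and 8.01 in brain mice 1 to 3 and at 6.46, 7.53, 7.33 and 6.61 in thymus mice 1 to 4. The highest and the lowest of the 7 values were both from brain. The means of brain mouse 2 and of thymus mice 1, 3 and 4 each include an array on which Epcam was undetected. The difference, thymus minus brain, was -0.16 (95% interval -1.05 to 0.72, adjusted p = 0.872, limma), an interval wide enough to hold a clear difference in either direction. It was -0.42 with median scaling between arrays and 0.27 without brain mouse 3.

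The organs also overlapped for C1qa and both chemokines. C1qa stood at 6.82, 6.66 and 6.54 in brain mice 1 to 3 and at 6.59, 6.89, 6.86 and 7.07 in thymus mice 1 to 4, with 3 thymus mice above the brain mice and mouse 1 among them. The difference was 0.18 (95% interval -0.17 to 0.53, adjusted p = 0.598, limma), and 0.04 with flagged spots left out. Cxcl12 stood at 6.56, 6.50 and 6.39 in brain and at 6.19, 6.54, 6.49 and 6.12 in thymus. Thymus mice 1 and 4 lay below the brain mice and mice 2 and 3 among them, with a difference of -0.15 (95% interval -0.49 to 0.20, adjusted p = 0.675, limma). Ccl17 stood at 6.72, 6.09 and 6.79 in brain and at 6.52, 6.35, 6.95 and 6.79 in thymus. The organs overlapped for Ccl17, with a difference of 0.12 (95% interval -0.37 to 0.60, adjusted p = 0.827, limma) that turned to -0.07 without thymus replicate 6.

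**Figure D3:**
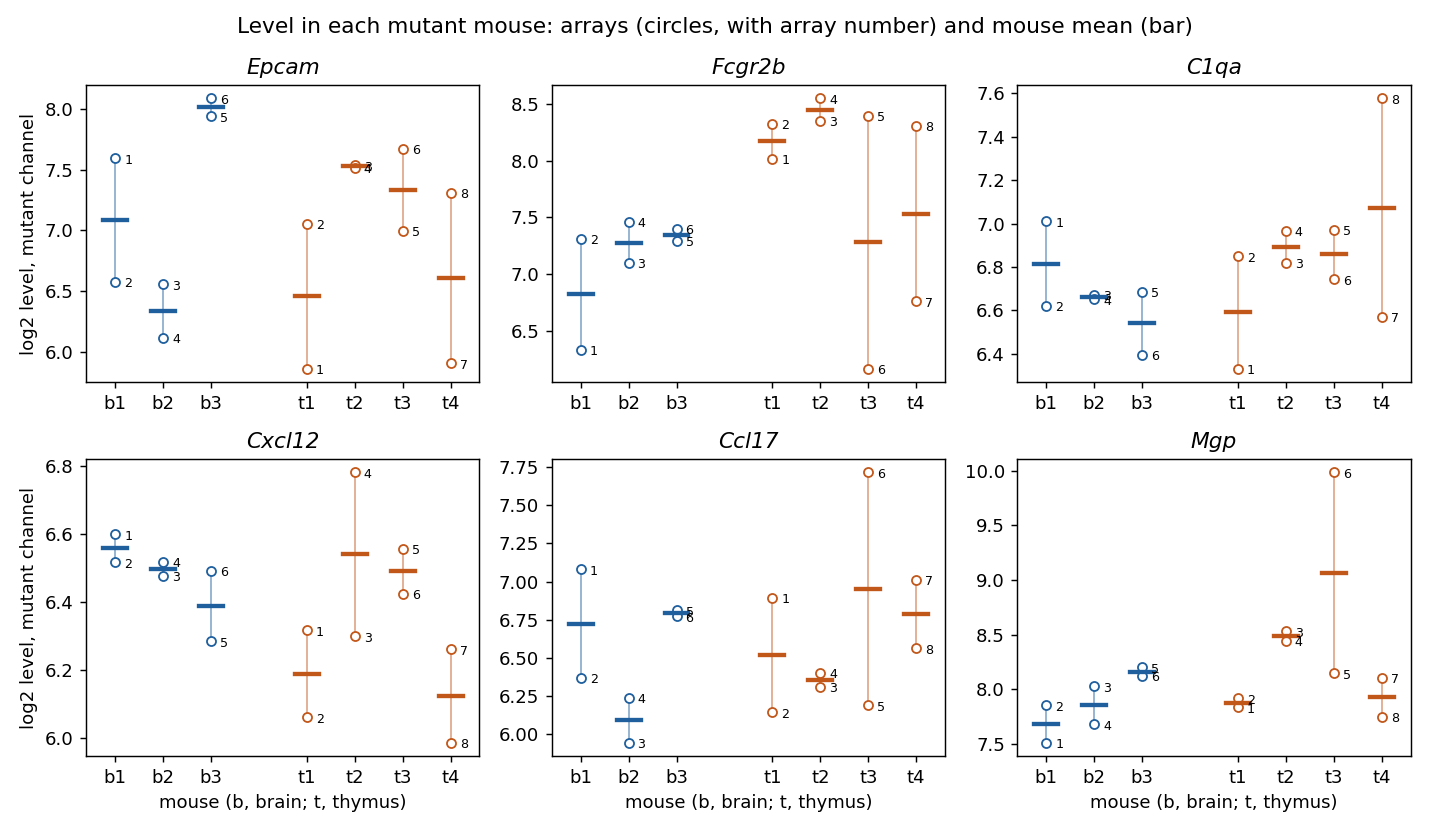
Log2 level of the mutant channel in brain mice 1 to 3 (blue, b1 to b3) and thymus mice 1 to 4 (orange, t1 to t4), with a numbered circle for each array, a bar for the mouse mean and 1 scale per gene. The arrays of 1 mouse lie as far apart as the organs in several panels, and thymus array 6 is lowest for Fcgr2b and highest for Ccl17 and Mgp.

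How well 1 RNA repeated itself on its own pair of arrays was set beside these differences. A pair compares single arrays and an organ difference compares means over mice, so the pair is the noisier measure. The absolute difference between the arrays of a mouse, over 7 such pairs, had a median over all probes of 0.158 to 0.343 per pair. For Fcgr2b the 7 differences ran from 0.105 to 2.24 with a median of 0.363, for Epcam from 0.021 to 1.41 with a median of 0.680, and for Ccl17 from 0.042 to 1.53 with a median of 0.449. C1qa had a median of 0.291, Cxcl12 of 0.207 and Mgp of 0.343. The pair differed by more than the organ means in 5 of 7 pairs for Epcam, C1qa and Ccl17, in 4 for Cxcl12, in 3 for Fcgr2b and in 1 for Mgp. The same count over all probes is not given here, so these counts do not set the members apart. The largest pair difference of each gene came from thymus, which gave 4 of the 7 pairs and the widest median over all probes (0.343, mouse 3).

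**Figure D4:**
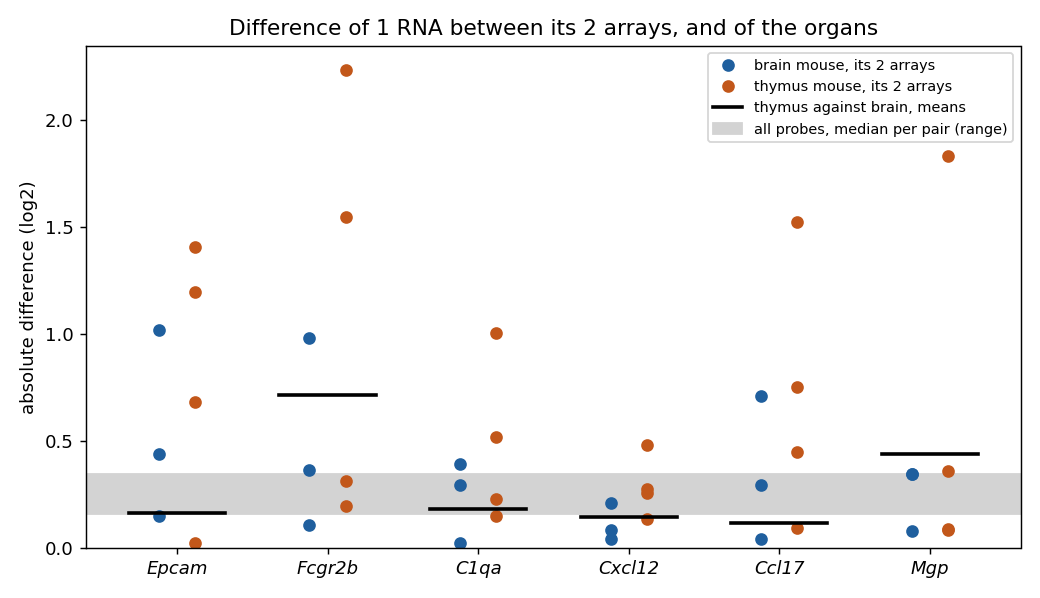
Absolute log2 difference between the arrays of 1 mouse (blue, 3 brain pairs; orange, 4 thymus pairs), with a black bar for the size of the difference between organ means and a grey band for the median over all probes, 0.158 to 0.343 across pairs. The widest pairs are thymus pairs, at 2.24 for Fcgr2b and 1.83 for Mgp.

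Few genes of the same cells could be named on the array, and none in their lists passed between organs. Of 32 genes listed for thymic epithelium 3 were named on the array, with levels in thymus minus brain of 0.45 for Cldn3, a tight junction protein, -0.16 for Epcam and -0.31 for Ly75, an endocytic receptor of epithelium and dendritic cells. Of 41 listed genes of macrophages, complement and Fc receptors 8 were named, the members Fcgr2b and C1qa among them. Of the 8, 6 were above 0, with a median of 0.22 against 0.02 over all probes. Among these, Aif1, a macrophage and microglia protein, had 0.51 (adjusted p = 0.181, limma) and Fcgr1, the activating receptor for IgG, -0.37 (adjusted p = 0.380). Aif1 did not enter the ratio test in either organ, and Fcgr1 did not in thymus. The Aif1 levels of 6.05 in brain and 6.56 in thymus were in the range of undetected spots.

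Of 49 matrix and fibroblast genes 8 were named, Mgp among them, with a median of 0.09. Mmp2, a gelatinase, had 0.54 (adjusted p = 0.133, limma), and Lox, which cross-links collagen, -0.48 (adjusted p = 0.156). Lox did not enter the ratio test in thymus. Of 56 chemokines and receptors 5 were named, Cxcl12 and Ccl17 among them, with a median of 0.12. Cxcl14 had the largest value, 0.65 (adjusted p = 0.595, limma). Of the dendritic cell list, Ccl17 alone was named on the array, and Cxcr4 and Ccr4, the receptors of the member chemokines, were not analysed here.

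Markers of other cells that these samples could hold were read in the same fit. The 2 granulocyte genes, Mmp8 and S100a9, had log2 differences of thymus minus brain of 0.11 and 0.25, the 3 endothelial genes had a median of 0.22, the 6 muscle genes -0.14 and the 2 fat genes 0.24. None of these passed, no erythroid gene of the list was named, and the part of such cells in the members' values was not tested.

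Over the 7 levels per mouse and organ, the named genes whose pattern was most like that of a member were found by Pearson's r among 1374 genes. These values share arrays and brightness and are a description. Fcgr2b was most like Bak1 (r = 0.99) and Rpl6 (0.98), Cxcl12 most like Psmg1 (0.98) and Sema3c (0.92), and Epcam most like Ddx28 (0.92) and Tmem174 (0.91). Ccl17 was nearest to Mycbp (0.92) and Hlx (0.89), Mgp to Csdc2 (0.92) and Tekt1 (0.91), and C1qa to Eln (0.90) and Ppm1g (0.89). None of the nearest genes was a macrophage or epithelial gene of the lists, and Eln, elastin, was the only one from the matrix list. Those lists had only 8 macrophage and 3 epithelial genes named on the array, members included. Among 1374 genes such few could hardly have appeared, so their absence says nothing on cell types.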

How the data were processed

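The deposited scanner files give the foreground and background intensity of 20205 spots (20160 probes) in a red and a green scan, per the file headers, read as Cy5 and Cy3. With limma 3.58.1 (R 4.3.3, statmod 1.5.0), the background of foreground means was corrected by normexp, offset 50, and each array normalised by loess, span 0.3. Because of the offset, dim spots give ratios closer to 0. Spots with flag -50 were left out of ratios and kept for levels, which were scaled between arrays with Aquantile. Mouse values were tested with lmFit and eBayes, and p-values were adjusted by Benjamini-Hochberg across every probe tested, with a threshold of 0.05. The procedure was also run on the same arrays after the signal of sampled probes was multiplied by set factors. The share of these probes that it called is not reported here.

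The authors' value table, kept as a score and used as an alternative, matched the deposited log2 ratios of background-subtracted medians plus 1 constant per array within 0.01 in 99.7% to 99.9% of rows. Its column medians ran from -1.37 to 0.865, and where the constants came from is not known. Values beyond 15 were treated as missing.

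Probes were named by RefSeq accession (961) or by a synonym listed for 1 gene alone (492, C1qa among them) in RefSeq's gene table (GRCm38.p6). The members and gene lists were chosen with earlier results of these data known. Named are all members, list genes past the threshold, further list genes chosen after their values were seen, and for likeness the 2 genes of highest r per member. The B cell list is not reported here.

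Thymus replicate 1 carries the tissue brain in 1 label, while its title and pool say thymus, and it was taken as thymus. The pools list 4 animals, the labelling protocol 6. For mice 3 and 4 the file names swap digits of the identifiers in the labels, which were followed. Mice 1 to 3 gave both organs, so the mouse pairs the samples by animal. Their levels in both organs, as deviations from each organ's mean, had correlations of -0.0234, 0.0162 and -0.00108 over all probes. Alternatives changed the background correction, normalisation, filter, flags, dye orientation, table, mice and arrays.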

Additional observations from a re-analysis of the deposited data

Results flagged for a closer look

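Of 44 groups of mouse or array values of the members, 5 had a highest or lowest value that stood apart from the rest. Each of these 5 was a group of array values. Dixon's criterion was used, which chance alone meets in about 1 in 20 groups. In 3 of the 5, thymus replicate 6 stood high: for Mgp in the mutant channel at a level of 9.98 and in the pool channel at 9.95, and for Ccl17 in the pool channel at 7.61. The Mgp ratio on thymus replicate 7, at 0.73, stood above those of the other 7 thymus arrays. The Fcgr2b level in the mutant channel of brain replicate 1, at 6.33, stood below those of the other 5 brain arrays. Their causes were not tested.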

How the results depend on the processing

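The members' levels between organs passed the threshold under none of the alternatives, and the Fcgr2b difference ran from 0.45 to 0.99 over 16 alternatives (adjusted p 0.0854 to 0.505, limma). The Epcam thymus ratio ran from 0.14 to 0.62 and that of Fcgr2b from 0.06 to 0.59 over 15 alternatives. Both genes were chosen with these ratios in view, so the sign they kept is no support for a difference. For Epcam, leaving out thymus mouse 1 or 4 could not change the value of 0.37, since neither gave one. Leaving out mouse 2 or 3 left 1 mouse. The Epcam brain ratio, near 0, turned to -0.068 with median centring, -0.0124 with flagged spots kept, -0.102 in the authors' table and -0.0702 with the mutant in Cy3 only. The Fcgr2b brain ratio turned to -0.0814 with the mutant in Cy3 only. The Ccl17 level difference turned to -0.0175 without thymus arrays 6 and 8 and to -0.0736 without array 6, and ran from -0.11 to 0.25 with each mouse left out. That of Epcam ran from -0.57 to 0.27.

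With the mouse as a replicate block, 5 probes passed between organs in place of 264, with 0 higher and 5 lower in thymus, and no member's call changed. The block rests on mice 1 to 3, since thymus mouse 4 has no partner, and leaving out that mouse with no block gave 130. The number higher in thymus, 64, became 40 without background correction, 41 with median scaling, 19 with flagged spots left out, 40 without thymus array 1 and 128 without thymus array 6. The number lower, 200, became 131 without thymus arrays 6 and 8. With each mouse left out, 36 to 172 probes passed, 4 to 52 of them higher and 32 to 160 lower. For ratios, 1 probe passed in brain with the mutant in Cy5 only, and 0 to 1 in brain and 0 to 1 in thymus with each mouse left out. The cause of these shifts was not tested. Signal over background limits Cxcl12 and Ccl17 in thymus, where most spots did not rise above the detection limit.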
